A study of Homo sapiens with 3 samples.

Results

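Integrins, the proteins of focal adhesions, CD44, syndecans and caveolins were examined for MEIS1 binding in CWR22Rv1 cells, an established human prostate carcinoma line, with and without HOXB13. The set held 49 genes of the 20056 protein-coding genes in RefSeq. They were chosen by name: 12 integrin alpha subunits, 8 integrin beta subunits, 13 adhesion adaptors and scaffolds, 6 kinases, 4 genes of actin crosslinkers and the membrane skeleton, and 6 genes for CD44, syndecans and caveolins. A gene was counted as bound where the deposited annotation named it as the gene with the nearest transcription start site to a peak. Of 5968 peaks in LV-MEIS1 cells 19 were annotated to these genes, and of 2047 peaks in HOXB13ko-LV-MEIS1 cells 1 was.

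LV-MEIS1 cells express MEIS1 exogenously from a lentiviral vector and keep their own HOXB13. HOXB13ko-LV-MEIS1 cells carry the same exogenous MEIS1 after a CRISPR knockout of HOXB13. MEIS1 was pulled down from chromatin of LV-MEIS1 cells in 3 immunoprecipitations and of HOXB13ko-LV-MEIS1 cells in 2, and the authors pooled those of a line before calling peaks, per the file headers against 1 input of untreated CWR22Rv1 chromatin for both lines. The methods of the study instead describe an input from each line, so fold enrichments, q-values and missing peaks hold for the input that the headers name, and the effect of another input was not tested. Each line therefore has 1 list of peaks with no replicate error, and no difference between the lines was tested here. The pools held 202428594 and 105763683 tags and the input 39102495, and cell line, culture and depth cannot be told apart in any difference between the lists. A missing peak means only that no position passed the authors' q-value threshold of 0.01.

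Integrins are heterodimers of an alpha and a beta subunit that hold cells to the extracellular matrix. Inside the cell talins and kindlins bind the beta subunit and switch the integrin to its active form, and vinculin, paxillin, the ILK-PINCH-parvin complex, alpha-actinins and the kinases FAK and SRC assemble on it into focal adhesions, which join the matrix to actin and pass on signals for migration and survival. MEIS1 is a TALE homeodomain protein that binds DNA with HOX proteins, and its core word is TGACA. In prostate carcinoma, altered integrin use is a known feature of invasive cells.

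Sequences under some of the summits are given first. They do not stand for all peaks of these genes, since most were picked for holding TGACA. Each is 29 bases of hg38 read 5′ to 3′, and capitals mark TGACA on either strand (TGTCA when read from the other). PXN is shown as the gene with a peak in both lists and ANK3 for a peak at a start site. ITGB1, PARVA, LIMS1, ITGA2 and ACTN1 were chosen after their values were seen, from among the peaks with TGACA within 10 bp of the summit.
PXN, intron 1, chr12:120234919-120234947, plus strand: tcctgggagctgTGACAggtTGTCActaa
ANK3, promoter, chr10:60141039-60141067, minus strand: cctccttccaccTGACAgggaccataaat
ITGB1, CpG island upstream, chr10:32980634-32980662, plus strand: ccgccgactcacTGACAcatcacaatgag
PARVA, intron 1, chr11:12390781-12390809, plus strand: cagacctgcagaTGACAggtaattaataa
LIMS1, intron 1, chr2:108617024-108617052, minus strand: aatttccctgtgTGACAtaaaggaagaat
ITGA2 by annotation, exon 15 of ITGA1, chr5:52915537-52915565, plus strand: atggtgacggtcTGACAgatgtgactatt
ACTN1, intron 1, weaker peak, chr14:68938748-68938776, minus strand: catgctgaccgcTGACAttgactgggctc

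TGACA, on either strand, lay within 50 bp of the summit in 12 of the 19 LV-MEIS1 peaks (63.2%, 95% Clopper-Pearson interval 38.4% to 83.7%), against 56.1% of all LV-MEIS1 peaks and 16.8% of all HOXB13ko-LV-MEIS1 peaks. The interval covers counting error only. The longer word TGACAG, which contains TGACA, was near 7 of the 19 summits, against 30.4% of all LV-MEIS1 peaks and 7.82% of all HOXB13ko-LV-MEIS1 peaks. ATAAA, the core of the HOXB13 word, was near 7 of 19, against 45.8% of all LV-MEIS1 peaks and 13.0% of all HOXB13ko-LV-MEIS1 peaks. Of the 12 peaks with TGACA 4 held ATAAA as well, and of the 7 without TGACA 3 did, where over all LV-MEIS1 peaks the shares were 43.2% and 49.2%. The ITGA11 peak, the weaker TNS3 peak, the stronger ACTN1 peak and the weaker ACTN4 peak held neither word, and their sequences are not shown. For each of the 3 words the share over all LV-MEIS1 peaks lay inside the interval of the 19.

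At PXN the site holds TGACA and, 3 bases on, TGTCA, so that the word reads inward from both strands. That spacing, with any 3 bases between, was within 50 bp of the summit in 10 LV-MEIS1 peaks (0.168%) and in 1 HOXB13ko-LV-MEIS1 peak (0.0489%), which is the one at PXN. With the exact bases of PXN between the words it was near 2 LV-MEIS1 summits (0.0335%). At LIMS1 the last base of TGACA is the first base of ATAAA. That joined word, TGACATAAA, was near the summit of 24 LV-MEIS1 peaks (0.402%) and of 0 HOXB13ko-LV-MEIS1 peaks. Of the LV-MEIS1 peaks of these genes 3 had ATAAA near the summit and no TGACA within 50 bp, and are shown for that contrast, also chosen after their values were seen, as 29 bases of the plus strand around the summit. Capitals there mark the word ATAAA, which reads as TTTAT where it lies on the minus strand.
ACTN4, intron 1, stronger peak, chr19:38650016-38650044: gagtctcaacaataaTTTATtgcctgagg
ANK3, intron 2, chr10:60497537-60497565: aattcaacatatacatgattgaTTTATta
ROCK1, intron 2, chr18:21069649-21069677: atgccagttaccattaagATAAAtagtca

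By gene, 14 of the 49 genes had an annotated LV-MEIS1 peak (28.6%, interval 16.6% to 43.3%), and 15.1% of all protein-coding genes had one. In HOXB13ko-LV-MEIS1 cells 1 of the 49 had a peak (2.04%, interval 0.0517% to 10.9%), against 5.79% of all protein-coding genes. PXN was the gene with a peak in both lists, where 2.29% of all protein-coding genes had one in both. It was 1 of the 14 bound in LV-MEIS1 cells (7.14%, interval 0.181% to 33.9%). Over all protein-coding genes with an LV-MEIS1 peak 15.1% also had a HOXB13ko-LV-MEIS1 peak. The other 13 genes had a peak in LV-MEIS1 cells only, 0 had one in HOXB13ko-LV-MEIS1 cells only, and 35 had none in either list. The LV-MEIS1 list was also cut to its 2047 peaks of highest fold enrichment, the length of the other list. Of the 49 genes 6 still had a peak (12.2%, interval 4.63% to 24.8%). The share over all protein-coding genes, 6.09%, lay inside that interval. These 6 were ACTN1, ACTN4, ANK3, PARVA, PTK2B and PXN.

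The genes of this set are long. Their median length was 93521 bp against 27354 bp for all protein-coding genes with a MANE Select transcript (the reference transcript agreed between RefSeq and Ensembl), and the 14 genes with an LV-MEIS1 peak had a median of 127076 bp against 79106 bp for the 35 without. The part of gene length in the share of bound genes was not tested.

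**Figure D1:**
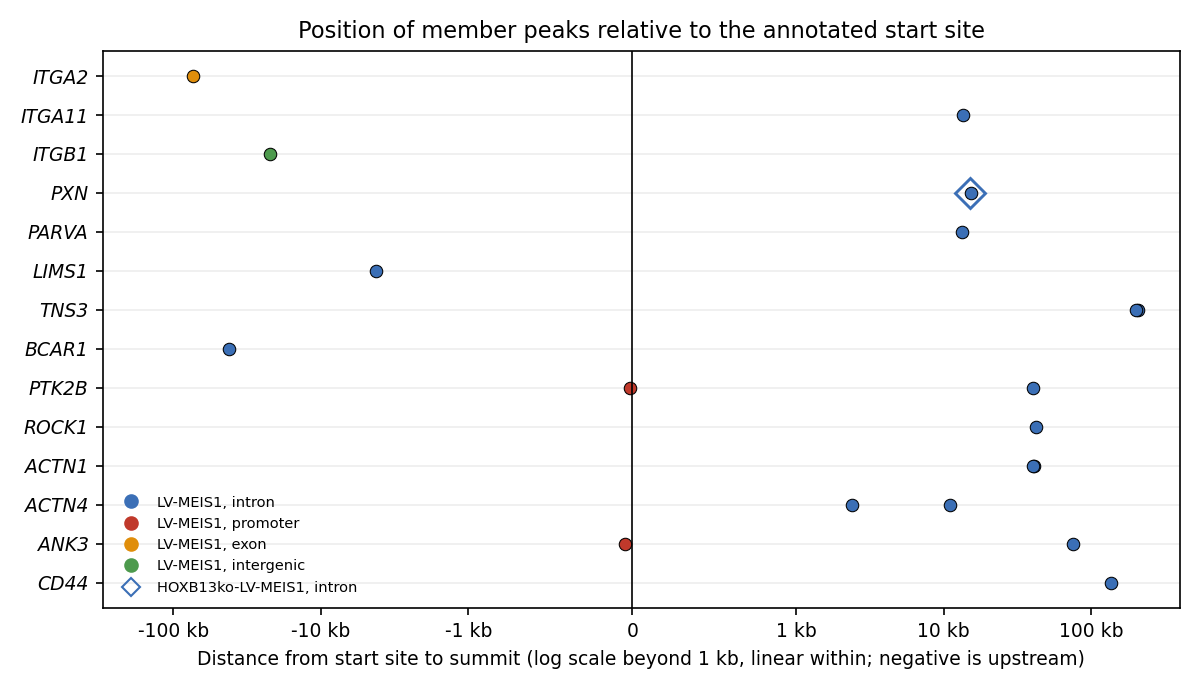
Distance from the annotated transcription start site to each summit, in base pairs on an axis that is logarithmic beyond 1 kb, for the 14 genes with a peak. Filled circles are LV-MEIS1 peaks coloured by class and the open diamond is the HOXB13ko-LV-MEIS1 peak at PXN, which lies on the LV-MEIS1 peak. Summits at PTK2B and ANK3 sit at a start site, and most of the others lie more than 10 kb downstream.

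Introns held 15 of the 19 LV-MEIS1 peaks (78.9%, interval 54.4% to 93.9%), against 38.0% of all LV-MEIS1 peaks and 21.5% of all HOXB13ko-LV-MEIS1 peaks. The interval takes the 19 peaks as separate, although 5 genes held 2 each. Among the 15, the peaks named for BCAR1 and CD44 lay inside other genes, CFDP1 and SLC1A2. The part of gene length in the intron share was not tested. Promoters held 2, an exon 1 and intergenic sequence 1, and 1 of the 19 lay in an annotated repeat. Over all LV-MEIS1 peaks 20.2% were annotated to a promoter, 37.0% as intergenic and 19.5% to a repeat. Summits lay 13 to 209956 bp from the annotated start site, with a median of 40412 bp against 23121 bp over all LV-MEIS1 peaks. Within 10 kb were 4 of the 19 (38.1% of all LV-MEIS1 peaks were) and 3 beyond 100 kb (21.7% of all). Downstream of the start site lay 13 peaks and upstream 6.

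Fold enrichment, the ratio of pileup to local background as MACS2 gives it, ran from 3.71 to 16.4 over the 19 peaks. Its median was 6.09, and the median of all 5968 LV-MEIS1 peaks was 6.17. Above that median were 9 of the 19. The peaks of these genes were thus spread over the range of the list, from percentile 3.20 (TNS3) to percentile 99.8 (PTK2B).

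**Figure D2:**
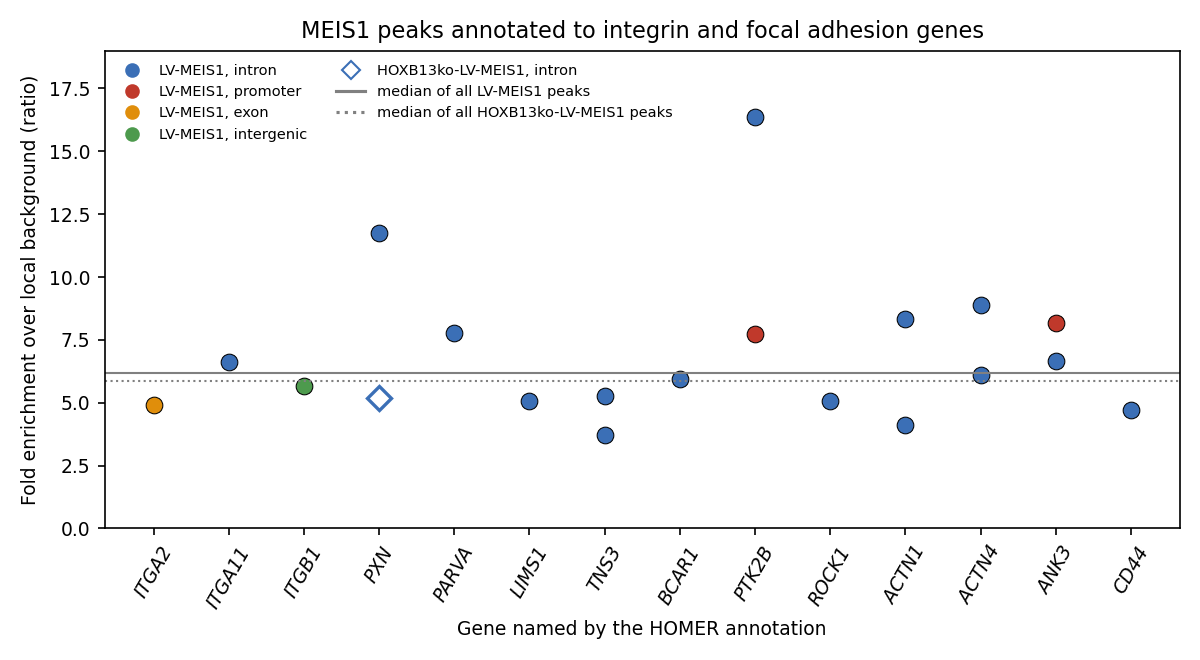
Fold enrichment over local background of each peak, by annotated gene. Circles are LV-MEIS1 peaks coloured by class, the open diamond is the HOXB13ko-LV-MEIS1 peak at PXN, and the grey lines are the medians of all peaks of each list (6.17, solid, and 5.85, dotted); values are to be read against the line of their own list, since the pools differ in depth. PTK2B, at 16.4, and PXN, at 11.8, stand highest, and 9 of 19 circles lie above the solid line.

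Among integrin alpha subunits 2 of 12 were named, ITGA2 and ITGA11, in LV-MEIS1 cells only, where 15.1% of all protein-coding genes had an LV-MEIS1 peak. ITGA2 encodes the alpha subunit of a collagen receptor, and so does its neighbour ITGA1. The peak named for ITGA2 (chr5:52915425-52915626) lay 73776 bp upstream of the ITGA2 start site, inside ITGA1, in exon 15 of 29. Its fold enrichment was 4.93, at percentile 19.6, with a q-value of 1.03e-08. By position it therefore belongs to the body of ITGA1, which the annotation named for 0 peaks. ITGA11, another collagen-binding subunit, had a peak in intron 1 (chr15:68418552-68418801), 13484 bp downstream of its start site and within a MER91C DNA transposon. Its fold enrichment was 6.60 and its q-value 8.64e-12, and TGACA was not found within 50 or 100 bp of that summit.

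The other 10 alpha subunits, ITGA1, ITGA3, ITGA4, ITGA5, ITGA6, ITGA7, ITGA8, ITGA9, ITGA10 and ITGAV, had no annotated peak in either list. Position gave a different account for some of them. Beyond the 3′ end of ITGA5, the fibronectin receptor subunit, an LV-MEIS1 peak at chr12:54387528-54388032 lay 7229 bp outside the gene in an intron of ZNF385A, with a fold enrichment of 8.48 (q-value 1.11e-32). ITGA7, a laminin receptor subunit, was flanked by LV-MEIS1 peaks at the promoters of METTL7B and RDH5, and ITGA10 had one near it at the promoter of ANKRD35. TGACA was found near the summit, within 50 bp, in each of the flanking peaks named here. A HOXB13ko-LV-MEIS1 summit lay inside or within 10 kb of 0 of the 12 alpha subunit genes, where 8.13% of all protein-coding genes had one. In so few genes 0 is close to that share, and no difference was tested.

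Of the 8 beta subunits ITGB1 was named, in LV-MEIS1 cells only, where 15.1% of all protein-coding genes had an LV-MEIS1 peak. ITGB1 encodes the subunit that pairs with most alpha subunits, including those for collagen, fibronectin and laminin. Its LV-MEIS1 peak (chr10:32980520-32980727, 208 bp wide) lay 22278 bp upstream of the start site used by HOMER and 22413 bp upstream of the MANE Select start site. HOMER called the position intergenic and within a CpG island. In GENCODE release 44 it falls inside the span of the ITGB1 gene and inside the divergent lncRNA gene ITGB1-DT. Fold enrichment was 5.66, at percentile 37.6 of the list, with a q-value of 3.49e-09, and TGACA was centred 5 bp from the summit. This is thus a peak of middling rank, lost when the list was cut to its 2047 highest.

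In HOXB13ko-LV-MEIS1 cells the nearest peak to ITGB1 was 2485827 bp upstream of the start site (chr10:35443935-35444155), in an intron of CCNY and within an LTR10C element, with a fold enrichment of 6.90 at percentile 70.9 of its own list. Within 1000 kb of the ITGB1 start site the LV-MEIS1 list, of 5968 peaks, held 3 and the HOXB13ko-LV-MEIS1 list, of 2047, held 0. Windows of this size elsewhere were not counted, so these counts do not show a difference particular to ITGB1. Both other LV-MEIS1 peaks were upstream, beyond NRP1, at 841317 and 989637 bp and were annotated to LINC00838. The nearer of these had the higher fold enrichment, 11.9, against 3.87 for the farther.

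**Figure D3:**
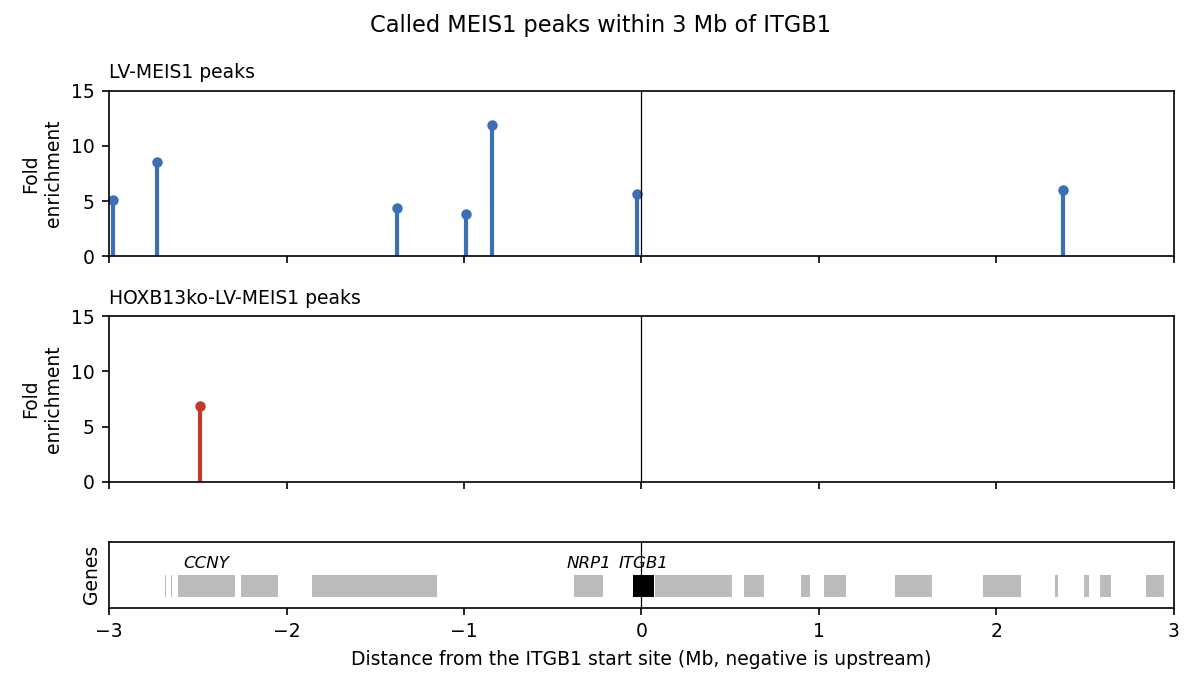
Called peaks within 3000 kb of the ITGB1 start site by signed distance in Mb (horizontal axis), with fold enrichment over local background as height, for LV-MEIS1 (upper) and HOXB13ko-LV-MEIS1 cells (middle). Protein-coding genes are drawn below to scale, ITGB1 in black. LV-MEIS1 cells have 7 peaks in the window, the nearest 22413 bp upstream of the start site, and HOXB13ko-LV-MEIS1 cells have 1, at CCNY. The whole lists hold 5968 and 2047 peaks.

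The beta subunits ITGB2, ITGB3, ITGB4, ITGB5, ITGB6, ITGB7 and ITGB8 had no annotated peak. ITGB4, the hemidesmosome subunit, had LV-MEIS1 and HOXB13ko-LV-MEIS1 summits 59188 and 63701 bp from its start site, at the promoters of H3F3B and UNK. For ITGB7, a leukocyte subunit, the corresponding distances were 88221 and 92405 bp, at the promoters of PFDN5 and C12orf10. For the remaining 5 both lists had their nearest summit farther than 100 kb away.

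Adaptors and scaffolds had 5 of 13 genes with an LV-MEIS1 peak: PXN, PARVA, LIMS1, TNS3 and BCAR1. Over all protein-coding genes 15.1% had one, and no difference was tested. PXN encodes paxillin, a scaffold that recruits FAK and vinculin. Its LV-MEIS1 peak (chr12:120234743-120235128, 386 bp) was in intron 1, 15242 bp downstream of the start site used by HOMER and 30811 bp downstream of the MANE Select one. The fold enrichment of that peak was 11.8, number 241 of 5968 in the list, with a q-value of 2.02e-32. The HOXB13ko-LV-MEIS1 peak (chr12:120234834-120235034, 201 bp) lay wholly within the LV-MEIS1 peak, and the summits were 11 bp apart. Its fold enrichment was 5.19, at percentile 35.8 of its own list, with a q-value of 5.31e-07. The site was thus among the higher peaks of one list and below the median of the other. Both summits had the sequence printed above, the first TGACA being centred 14 bp from the LV-MEIS1 summit and 3 bp from the HOXB13ko-LV-MEIS1 summit.

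PXN was the single overlap among the 19 LV-MEIS1 peaks (5.26%, interval 0.133% to 26.0%), where 7.66% of all LV-MEIS1 peaks overlapped a peak of the other list and 22.3% of all HOXB13ko-LV-MEIS1 peaks did. For the other 18 the nearest HOXB13ko-LV-MEIS1 summit was between 31017 bp (ACTN4) and 5554981 bp (ROCK1) away. A second site near PXN was called in both lists, 25980 and 26042 bp upstream of the MANE Select start site, and both annotations named it for RNU4-2, a U4 small nuclear RNA gene.

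PARVA encodes alpha-parvin and LIMS1 encodes PINCH1, which form a complex with ILK at integrin tails. PARVA had a peak in intron 1 (chr11:12390666-12390934), 13311 bp downstream, with a fold enrichment of 7.78 (q-value 4.80e-17). Another LV-MEIS1 peak at chr11:12534525-12534763 lay in its last exon, in the 3′ UTR, with a fold enrichment of 6.01, and was annotated to TEAD1. LIMS1 had a peak in intron 1 of the transcript NM_001193482 (chr2:108616943-108617158), 4210 bp upstream of the annotated start site and 82566 bp downstream of the MANE Select one, with a fold enrichment of 5.06 (q-value 1.43e-10). The third partner, ILK, is described with the kinases.

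TNS3, a tensin that binds integrin tails and actin, had 2 peaks in intron 16, 8811 bp apart and 209956 and 201145 bp downstream of the start site. Both were below the median of the list, with fold enrichments of 5.26 and 3.71 and q-values of 1.52e-07 and 3.83e-05. BCAR1 encodes p130Cas, a FAK and SRC substrate. Its peak (chr16:75310042-75310249) was 42078 bp upstream of the start site, within an intron of the neighbouring gene CFDP1, with a fold enrichment of 5.95 (q-value 9.41e-10). VCL, TLN1, TLN2, ZYX, PARVB, TNS1, FERMT1 and FERMT2, which include vinculin, both talins and 2 kindlins, had no annotated peak in either list.

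Kinases had 2 of 6 genes with an LV-MEIS1 peak, PTK2B and ROCK1, where 15.1% of all protein-coding genes had one. PTK2B encodes PYK2, the relative of FAK that responds to calcium. It had the highest peak of the set, in intron 1 (chr8:27365750-27366221, 472 bp), 40412 bp downstream of the start site, with a fold enrichment of 16.4 (q-value 7.11e-54). This was number 14 of 5968 by fold enrichment. Its other peak covered the start site (chr8:27325413-27325686), with the summit 13 bp upstream, a fold enrichment of 7.74 (q-value 1.82e-16). TGACA was within 50 bp of both summits. The nearest HOXB13ko-LV-MEIS1 summit to either was 217825 bp away, annotated to MIR6843.

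ROCK1, a kinase that raises actomyosin contraction, had a peak in intron 2 (chr18:21069550-21069778), 42188 bp downstream of its start site, with a fold enrichment of 5.05 (q-value 6.68e-11). PTK2, SRC, ILK and ROCK2 were named in neither list. By position PTK2 and ILK nevertheless had an LV-MEIS1 peak. PTK2, which encodes FAK, held one in its intron 13 (chr8:140790692-140791011), annotated to the microRNA gene MIR151A, with a fold enrichment of 8.27 (q-value 5.11e-19). ILK, the pseudokinase of the parvin complex, had a summit 147 bp upstream of its MANE Select start site (chr11:6603541-6603742), annotated to the promoter of RRP8, with a fold enrichment of 5.85 (q-value 9.41e-10).

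Of the 4 genes of actin crosslinkers and the membrane skeleton 3 had LV-MEIS1 peaks, 2 each, where 15.1% of all protein-coding genes had one. These 3 genes, ANK3, ACTN1 and ACTN4, are 707193, 105313 and 83941 bp long, against a median of 27354 bp over all protein-coding genes. The part of gene length was not tested, and so small a group does not show a favoured class. ACTN1 and ACTN4 encode the non-muscle alpha-actinins. In intron 1 of ACTN1 the summits were 620 bp apart, 41216 and 40596 bp downstream of the start site. The first (chr14:68937989-68938338) had a fold enrichment of 8.34 (q-value 1.94e-18). The other (chr14:68938659-68938901) had a fold enrichment of 4.13 and the highest local background of the 19. TGACA was near the weaker of these summits and was not found within 100 bp of the stronger.

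ACTN4 had peaks in intron 1 at 2414 bp (chr19:38649857-38650161) and 11146 bp (chr19:38658635-38658912) downstream of its start site, with fold enrichments of 8.88 and 6.09 and q-values of 1.84e-20 and 1.32e-10. Neither had TGACA within 100 bp of the summit. In HOXB13ko-LV-MEIS1 cells the nearest summit was 28636 bp upstream of the start site, at the promoter of EIF3K. ANK3 encodes ankyrin-G, which links membrane proteins to spectrin. Its first peak (chr10:60140617-60141199, 583 bp) had the summit 45 bp upstream of the start site of the transcript NM_001149, 248814 bp downstream of the MANE Select start site. Its fold enrichment was 8.18 and its q-value 2.33e-19. The second (chr10:60497384-60497660) was in intron 2 of another transcript, with a fold enrichment of 6.65 (q-value 8.64e-12). FLNA, which encodes filamin A, had no peak in either list, and the nearest summit to it in both was more than 1000 kb away, annotated to DDX11L16.

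Of CD44, the syndecans and the caveolins 1 of 6 genes was named, where 15.1% of all protein-coding genes had an LV-MEIS1 peak. CD44, a hyaluronan receptor, had an LV-MEIS1 peak 136760 bp downstream of its start site (chr11:35275543-35275753), with a fold enrichment of 4.72, which put it at percentile 15.2 (q-value 5.35e-06). In GENCODE this position is beyond the end of CD44 and inside SLC1A2. A stronger LV-MEIS1 peak lay nearer to the start site, 77493 bp upstream of it (chr11:35061486-35062135), with a fold enrichment of 10.8 (q-value 6.34e-28), and was annotated to LOC100507144. In HOXB13ko-LV-MEIS1 cells the nearest summit was 470831 bp upstream, annotated to EHF. SDC1, SDC2, SDC4, CAV1 and CAV2 had no annotated peak. For SDC4 the nearest summits were 25599 bp (LV-MEIS1, annotated to TP53TG5) and 52381 bp (HOXB13ko-LV-MEIS1, annotated to DBNDD2) upstream of the start site.

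When genes were assigned by position in place of the nearest start site, 17 of the 49 genes had an LV-MEIS1 summit inside the gene or within 10 kb of it (34.7%, interval 21.7% to 49.6%), against 19.5% of 19061 protein-coding genes. In HOXB13ko-LV-MEIS1 cells 1 of the 49 had (2.04%, interval 0.0517% to 10.9%), against 8.13%, which lies inside that interval. The 6 genes that entered were ITGA1, ITGA5, ITGA7, ITGA10, PTK2 and ILK, and the 3 that dropped out were ITGA2, BCAR1 and CD44.

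Distance to the nearest summit of each list was then taken for all 49 genes, from the MANE Select start site. An LV-MEIS1 summit was within 100 kb of 20 of them (40.8%, interval 27.0% to 55.8%). Over all protein-coding genes the share was 40.5%, so by this measure the set was level with the background. A HOXB13ko-LV-MEIS1 summit was within 100 kb of 7 (14.3%, interval 5.94% to 27.2%), against 20.4%, which lies inside that interval. The median distance was 172091 bp to an LV-MEIS1 summit and 1054543 bp to a HOXB13ko-LV-MEIS1 summit, where all protein-coding genes had 147565 and 463905 bp. The LV-MEIS1 summit was the nearer for 44 of the 49 genes (89.8%, interval 77.8% to 96.6%), against 74.5% over all protein-coding genes. ITGA3, ITGA9, ITGB2, ITGB6 and PARVB were the 5 exceptions, all with both summits more than 100 kb away. The interval takes the genes as separate, although ITGA1 and ITGA2 share their nearest peak in each list, as do CAV1 and CAV2. PXN and FLNA count among the 44, although their nearest peaks in the lists overlap.

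**Figure D4:**
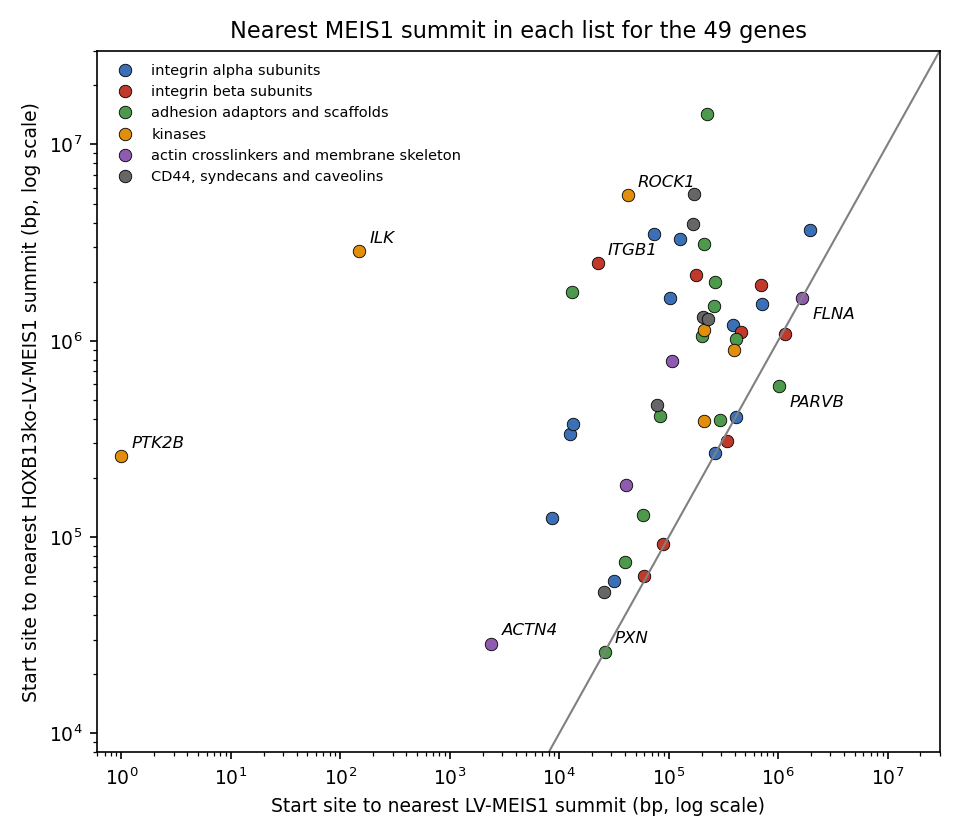
Distance in base pairs from the MANE Select start site to the nearest LV-MEIS1 summit (horizontal) and the nearest HOXB13ko-LV-MEIS1 summit (vertical) for the 49 genes, both on logarithmic axes, coloured by role. The line marks equal distance. Points above it, 44 of 49, have the LV-MEIS1 summit nearer, and PXN, ITGA3 and FLNA are among those almost on the line, where overlapping peaks of both lists are nearest.

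A wider list of 64 other adhesion genes, among them the remaining integrins, tensins and filamins, zyxin relatives, Cas proteins, KANK proteins and small GTPases, was counted the same way. Of these 7 had an LV-MEIS1 peak (10.9%) and 4 a HOXB13ko-LV-MEIS1 peak (6.25%), with backgrounds of 15.1% and 5.79%, and 0 had both. Those named here were chosen after their values were seen. LPP, a zyxin relative, had 5 LV-MEIS1 peaks with fold enrichments from 3.18 to 7.01, more than any of the 49 genes. KANK1, NCK2, ARHGEF7, NEDD9 and ITGB1BP1 were among the others in LV-MEIS1 cells. NEDD9, a Cas protein, and ITGB1BP1, which binds the tail of integrin beta 1, had theirs at a start site, at 42 and 208 bp from it. In HOXB13ko-LV-MEIS1 cells the genes were DOCK1, TGFB1I1, LASP1 and PAK2. The peaks of LASP1 and PAK2 lay in a tRNA gene and an LTR10A element, where 40.5% of all HOXB13ko-LV-MEIS1 peaks lay in an annotated repeat. None of the 5 HOXB13ko-LV-MEIS1 peaks of this wider list had TGACA within 50 bp of the summit, against 16.8% of all HOXB13ko-LV-MEIS1 peaks. No interval was taken for the shares of the wider list, and no difference from all protein-coding genes or from the 49 was tested. With 7 of 64 genes, the LV-MEIS1 share does not show such a difference.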

How the data were processed

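MEIS1 ChIP-seq of 1 pool per line was analysed from the deposited peak lists and annotations. Per the labels and file headers, the authors trimmed reads with Trimmomatic 0.38, removed duplicates with Picard 2.18.10, aligned to hg38 with Bowtie2, called peaks with MACS2 2.1.2 (extension 200 bp, q-value 0.01) and annotated summits with HOMER 4.9.1. The deposited signal is the pileup at a summit after the pool was scaled to the input (by 0.193 and 0.370). For fold enrichment the authors deposited a ratio, pileup plus 1 over local background plus 1. Each p-value and q-value was deposited as −log10, and q-values were converted back here. Fold enrichment was ranked within a list and not compared between lists.

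Members and gene lists were chosen with earlier results of these data known, so no test was made on them. All members were named, those with a peak with values, in full where a peak was at a start site or shared. Overlap was at least 1 bp. Words were searched in hg38, gene positions and MANE Select start sites came from GENCODE release 44, and the background of genes came from RefSeq by Entrez identifier, which matched 3033 of 4158 LV-MEIS1 and 1161 of 1619 HOXB13ko-LV-MEIS1 identifiers to protein-coding genes. Intervals are exact Clopper-Pearson intervals of 95%. Peaks on all hg38 sequences were used. The overlap and word searches were tested on simulated data. Python 3.11.15, pandas 2.3.3, scipy 1.17.1, pysam 0.24.0 and matplotlib 3.10.9 were used. Some results are not reported here.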

Additional observations from a re-analysis of the deposited data

How the results depend on the processing

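No paired analysis was possible because each line has 1 pooled list. With peaks within 10 kb of a start site only, 4 genes (ACTN4, ANK3, LIMS1 and PTK2B) had an LV-MEIS1 peak, 4 LV-MEIS1 peaks remained, and 0 genes had a HOXB13ko-LV-MEIS1 peak, so 0 were in both lists and 0 HOXB13ko-LV-MEIS1 peaks remained. With the LV-MEIS1 list cut to the length of the other, an alternative chosen after seeing the data, 6 genes and 7 peaks remained. Measured from peak edge to gene edge, the LV-MEIS1 peak at ITGB1 was 0 bp from the gene, since the GENCODE span of ITGB1 covers it. A q-value of 1e-05, a fold enrichment of at least 5, a limit of 100 kb and assignment by gene body moved these counts less. The number of genes with an LV-MEIS1 peak was 14, 12, 12 and 17 under these. Other definitions of overlap left PXN as the single shared site, and a window of 100 bp gave TGACA in 68.4% of the 19 LV-MEIS1 peaks. The shallower HOXB13ko-LV-MEIS1 pool and the single input limit what could be called.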
